A study of Mus musculus with 36 samples.

Results

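The genes examined were 35 mouse genes of protein folding in the endoplasmic reticulum (ER) and of the unfolded protein response. They fell into 5 roles: 5 stress sensors and transcription factors, 9 genes of the luminal Hsp70 and Hsp90 chaperone system, 8 lectin chaperones and enzymes of disulfide bond formation, 3 genes of the translocon, and 10 genes of ER-associated degradation. They were taken by name, as the probe sets whose gene symbol in the platform annotation was one of the 35 names. The list of names was drawn up with earlier results of these data known. Each gene was represented by its probe set with the highest mean over all arrays. All 35 had a probe set, among 18193 genes with one, and all 35 were among the 13924 genes tested. Of these, Ero1a and Selenok are the platform's symbols for 2 genes listed under the older names Ero1l and Selk.

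The arrays came from the forebrain of 18 adult heterozygous Cnp–eGFP-L10a mice on the C57BL/6 strain, so that every group carries the same transgene. In this line a ribosomal protein fused to green fluorescent protein is made under control of Cnp, a gene of oligodendrocytes, the myelin-forming cells of the brain. Pulling down the tag gave a bound fraction of oligodendrocyte messenger RNA, and the supernatant of the same forebrain gave the unbound fraction, with RNA of neurons and other glia. Each animal thus gave 2 arrays, and the 36 arrays formed 6 groups of 6. Sleep animals were killed in the light phase at 3 to 5 pm, after spending 75% or more of the preceding 6 to 7 h asleep. Waking animals were killed in the dark phase at 3 to 5 am, with 70% or more of the same span spent awake. Sleep-deprived animals had been awake for most of the night and were then kept awake for 4 h of the light period with new objects. The sleep and waking groups therefore differ in both state and time of day, and these cannot be told apart. The waking and sleep-deprived groups likewise differ in light phase as well as in the kind of waking, which cannot be told apart either. For the sleep-deprived animals the labels used here give no hour of death. Any difference in clock time between them and the sleep animals therefore cannot be told apart from state.

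Proteins that enter the secretory pathway are threaded into the ER through the Sec61 channel, folded there by chaperones of the Hsp70, Hsp90 and lectin classes, and linked by disulfide bonds through protein disulfide isomerases. When unfolded protein builds up, the membrane sensors IRE1 (Ern1), PERK (Eif2ak3) and ATF6 start the unfolded protein response, in which IRE1 splices the messenger RNA of the transcription factor XBP1, and XBP1 and ATF6 raise chaperone and degradation genes. Oligodendrocytes make large amounts of membrane and secreted proteins for myelin, and this response is known to matter in their diseases.

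Many chaperone genes carry the ER stress response element (ERSE), a promoter motif through which ATF6 and XBP1 act together with the factor NF-Y. The sequences below are shown because they mark the members whose promoter holds it, for comparison with the array values further on. The motif searched was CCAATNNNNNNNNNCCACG, on both strands of the 250 bases before each gene's start, together with the shorter ERSE-II, ATTGGNCCACG, which shares the CCACG end with it. Promoter windows were those of RefSeq on GRCm38.p6, and 30 of the 35 members had one. ERSE was found in 37 of 32851 windows (0.113%) and in 9 of the 30 members (30%), and ERSE-II in 10 windows (0.0304%) and 1 member. The first share counts windows and the second genes. The members were listed as genes of this response, so the 2 shares are no test. A match of letters is a description and does not show that a factor binds. Each line gives the strand on which the motif reads as written, with its 2 fixed blocks in capitals and 14 bases on either side. Position runs from chromosome start to end in GRCm38.p6. Hspa5 (chr2:34772011-34772057, plus strand), Calr (chr8:84847061-84847107, plus strand), Pdia6 (chr12:17266477-17266523, plus strand), Syvn1 (chr19:6046518-6046564, plus strand), Creld2 (chr15:88819506-88819552, minus strand) and Derl3 (chr10:75893228-75893274, minus strand) are members with an ERSE that rose in at least 1 fraction. Hsp90b1 held 2 sites, the first on the minus strand (chr10:86705624-86705670) and the second on the plus strand (chr10:86705519-86705565). Herpud1 (chr8:94386363-94386401, plus strand) held the ERSE-II. Dnajc3 (chr14:118937813-118937859, plus strand) and Canx (chr11:50325786-50325832, minus strand) held an ERSE and were not called in either fraction.
Hspa5: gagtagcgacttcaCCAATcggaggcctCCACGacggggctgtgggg
Calr: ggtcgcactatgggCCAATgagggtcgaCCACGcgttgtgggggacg
Pdia6: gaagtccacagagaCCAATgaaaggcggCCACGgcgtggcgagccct
Syvn1: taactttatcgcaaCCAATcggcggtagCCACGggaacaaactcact
Creld2: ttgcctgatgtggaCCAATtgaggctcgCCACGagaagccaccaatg
Derl3: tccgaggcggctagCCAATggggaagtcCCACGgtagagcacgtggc
Hsp90b1, first site: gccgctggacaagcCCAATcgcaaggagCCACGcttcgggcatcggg
Hsp90b1, second site: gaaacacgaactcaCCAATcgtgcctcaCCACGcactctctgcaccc
Herpud1: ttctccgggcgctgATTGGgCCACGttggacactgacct
Dnajc3: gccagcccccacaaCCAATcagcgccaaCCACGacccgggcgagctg
Canx: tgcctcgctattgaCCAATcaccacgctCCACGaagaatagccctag

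All levels below are deposited log2 signals of a probe set, on which a difference of 1 is a 2-fold change, and the number of arrays limits their precision. Levels of different probe sets are not compared with each other. A gene is called where its adjusted p from limma, a moderated linear model fitted across all genes, corrected over all 13924 genes by the Benjamini-Hochberg method, is below 0.05, and "rose" and "fell" are written only of called genes. The 11 oligodendrocyte markers measured averaged 12.31 to 12.48 on the bound and 9.13 to 9.86 on the unbound arrays, and all 11 were called higher in the bound fraction. All 11 neuron markers and all 9 tested microglia markers were called lower there, although neuron markers still averaged 10.49 to 11.01 on bound arrays. Array means lay between 5.91 and 5.94 in the bound groups and between 6.33 and 6.42 in the unbound groups. Waking animals 3 and 5 and sleep-deprived animal 11 stood apart from the others by high Xist (means of 6.15, 6.73 and 6.04) and low Eif2s3y (3.37, 3.23 and 2.92, against at least 7.90), and results that change without them are given with and without them. Xist and Eif2s3y are sex-linked genes, and the labels used here do not give the animals' sex. No sleep animal stood apart in this way, so the animals set apart fall unevenly over the states. All array values are bulk values, in which fewer cells of a type and less RNA per cell cannot be told apart.

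Some chaperones, disulfide isomerases and degradation genes were higher in the oligodendrocyte fraction after sleep deprivation, and most members of each role did not pass the test. Against sleep, 11 of the 35 genes rose in the bound arrays and 1 fell, where 7.53% of all tested genes were called higher and 6.87% lower. The risers were Xbp1, Hspa5, Hsp90b1, Sdf2l1, Manf, Calr, Pdia3, Pdia6, Herpud1, Sel1l and Derl3, and Derl1 fell. Derl3 passed the filter on signal level only through its bound waking and sleep-deprived arrays, so it is no support for this count. The median change of the 35 genes was 0.17 log2 and that of all tested genes −0.0078, and 28 of the 35 changes were positive, against 6827 of 13924. Counts by role were 1 of 5 sensors and factors, 4 of 9 in the Hsp70 and Hsp90 system, 3 of 8 lectin chaperones and disulfide enzymes, 0 of 3 translocon genes, and 3 higher and 1 lower among the 10 degradation genes.

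**Figure D1:**
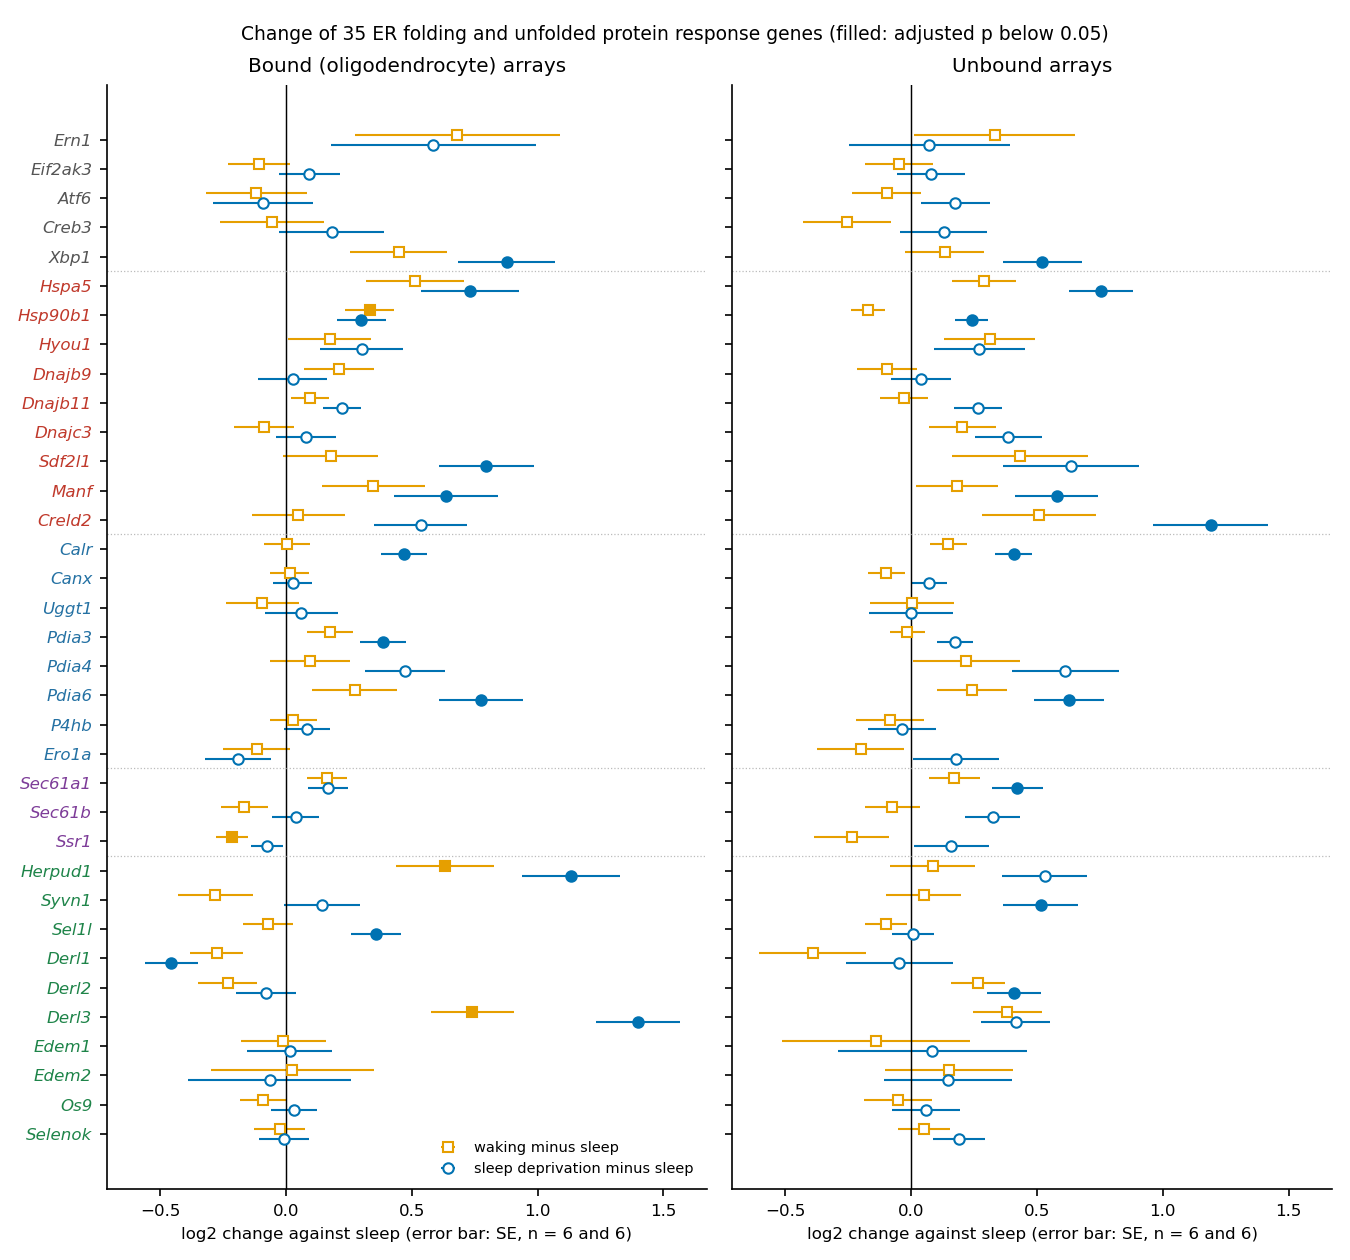
Log2 change of each of the 35 genes against sleep (horizontal axis) in the bound arrays on the left and the unbound arrays on the right, with squares for waking and circles for sleep deprivation, bars for the SE of limma (n = 6 and 6) and filled symbols for an adjusted p below 0.05. Gene names are coloured by role, with dotted lines between roles. The highest values were those of Derl3 (1.40, from a sleep level near the bottom of the scale) and Herpud1 (1.13) in the bound arrays and of Creld2 (1.19) in the unbound arrays, all with sleep deprivation.

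None of the stress sensors was called in this comparison. Ern1, the IRE1 kinase and nuclease, had bound levels of 5.15, 5.98 and 6.95 in sleep and 4.61, 6.68 and 7.90 in sleep deprivation (lowest, median and highest of 6 in each, here and below), a difference of 0.59 ± 0.41 (SE; adjusted p = 0.373). Its levels were the most spread of the sensors, and the sleep-deprived arrays lay on both sides of the sleep arrays. Eif2ak3, the PERK kinase, stood at 7.26, 7.57 and 7.76 in sleep and at 7.37, 7.64 and 7.84 in sleep deprivation, a difference of 0.09 ± 0.12 (adjusted p = 0.668). Atf6, the membrane-bound transcription factor, had 8.86, 9.54 and 9.68 in sleep and 8.96, 9.48 and 9.62 in sleep deprivation, a difference of −0.09 ± 0.20 (adjusted p = 0.812). For both, the groups overlapped over most of their range. Xbp1, the factor that IRE1 splices, was the one gene of this role that rose. Its bound levels were 7.93, 8.13 and 8.53 in sleep and 8.47, 9.17 and 9.59 in sleep deprivation, a rise of 0.88 ± 0.19 (adjusted p = 0.00462). All 6 sleep-deprived arrays were above the sleep mean, and the lowest, that of animal 11, was below the highest sleep array. These arrays read the total Xbp1 message and were not used to separate its spliced form. Creb3, a related ER-bound factor, differed by 0.18 ± 0.21 (adjusted p = 0.62).

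In the luminal chaperone system, the rises were those of the central chaperones and of small stress-induced proteins. Hspa5 encodes BiP, the Hsp70 of the ER lumen. On the bound arrays it had 10.56, 10.96 and 11.49 in sleep and 11.02, 11.79 and 12.28 in sleep deprivation, a rise of 0.73 ± 0.19 (adjusted p = 0.0154). All 6 sleep-deprived arrays exceeded the sleep mean, and sleep-deprived animals 8 and 11 fell within the range of sleep. Hsp90b1 encodes GRP94, the Hsp90 of the ER. Its levels of 11.70, 11.75 and 12.16 in sleep and 11.86, 12.14 and 12.55 in sleep deprivation gave a smaller rise of 0.30 ± 0.10 (adjusted p = 0.0468). The groups overlapped, and the call was lost when any 1 of 13 animals was left out, with adjusted p up to 0.0976, and after quantile normalization within the fraction (0.0959).

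Sdf2l1, part of a complex with the ER chaperones, stood at 8.27, 8.60 and 8.79 in sleep and at 8.86, 9.36 and 9.84 in sleep deprivation, a rise of 0.80 ± 0.19 (adjusted p = 0.00777). Every sleep-deprived array of Sdf2l1 was above every sleep array. Manf, a secreted protein of the ER stress response with neurotrophic activity, had 9.40, 10.30 and 10.44 in sleep and 10.41, 10.71 and 11.26 in sleep deprivation, a rise of 0.64 ± 0.21 (adjusted p = 0.0429). All 6 were above the sleep mean, with the arrays of animals 8 and 9 inside the sleep range, and the call was lost without any 1 of 8 animals (adjusted p up to 0.099), and after quantile normalization within the fraction (0.0601). Creld2, a stress-induced ER protein, differed by 0.54 ± 0.18 and missed the threshold (adjusted p = 0.0573), as did Dnajb11, a co-chaperone of BiP, at 0.22 ± 0.08 (adjusted p = 0.054). Hyou1, Dnajb9 and Dnajc3, a large Hsp70-like protein and a pair of BiP co-chaperones, differed by 0.30 ± 0.16, 0.03 ± 0.14 and 0.08 ± 0.12.

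Among lectin chaperones and disulfide enzymes, Calr rose and its membrane-bound counterpart Canx did not pass the test. Calr encodes calreticulin, which holds glycoproteins during folding. It had bound levels of 11.07, 11.36 and 11.78 in sleep and 11.70, 11.87 and 11.99 in sleep deprivation, a rise of 0.47 ± 0.09 (adjusted p = 0.00202). Except for sleep animal 2, all sleep arrays lay below all sleep-deprived arrays. The identifier of this Calr probe set carries the maker's mark for probes that may match other transcripts, and the other 2 probe sets changed by 0.52 and 0.80. Canx, or calnexin, differed by 0.03 ± 0.08 (adjusted p = 0.86).

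Of the disulfide isomerases, Pdia6 and Pdia3 rose. Pdia6 had 8.36, 8.55 and 8.75 in sleep and 8.75, 9.28 and 10.09 in sleep deprivation, a rise of 0.78 ± 0.17 (adjusted p = 0.00423). Only the array of animal 11 reached down to the sleep range. Pdia3, the isomerase that works with calreticulin and calnexin, had 11.21, 11.26 and 11.64 in sleep and 11.55, 11.67 and 12.06 in sleep deprivation, a rise of 0.39 ± 0.09 (adjusted p = 0.00801). Its sleep-deprived arrays all exceeded the sleep mean, and the highest sleep array was again that of animal 2. Pdia4 was close to the threshold at 0.47 ± 0.16 (adjusted p = 0.0529). P4hb, the founding isomerase of the family, differed by 0.08 ± 0.09, the oxidase gene Ero1a by −0.19 ± 0.13, and Uggt1, which marks misfolded glycoproteins for another folding round, by 0.06 ± 0.14.

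Among the degradation genes, 3 rose and 1 fell. Derl3 encodes a derlin, a membrane protein of the channel through which misfolded proteins leave the ER. It had bound levels of 3.83, 4.36 and 4.53 in sleep and 5.35, 5.70 and 5.96 in sleep deprivation, a rise of 1.40 ± 0.16 (adjusted p = 1.8e-05). The groups did not overlap. The Derl3 probe set was dim: its bound mean in sleep, 4.28, was below the filter level of 4.47, which it passed only through the bound waking and sleep-deprived arrays, and its unbound mean of 4.02 was below the level of 5.18. Its sleep level is thus near the bottom of the scale, and the size of its rise is uncertain. Herpud1, a stress-induced scaffold of the degradation complex, had 7.37, 7.58 and 7.78 in sleep and 8.15, 8.70 and 9.33 in sleep deprivation, a rise of 1.13 ± 0.19 (adjusted p = 0.000637). Its groups did not overlap either. Sel1l, the adaptor of the ubiquitin ligase HRD1, had 10.17, 10.49 and 10.64 in sleep and 10.68, 10.78 and 11.01 in sleep deprivation, a rise of 0.36 ± 0.10 (adjusted p = 0.0191), again with no overlap. Syvn1, which encodes HRD1 itself, differed by 0.14 ± 0.15 (adjusted p = 0.579).

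Derl1, another derlin, went the other way. It had 10.86, 11.03 and 11.18 in sleep and 10.28, 10.57 and 10.82 in sleep deprivation, a fall of 0.46 ± 0.11 on the log2 scale (adjusted p = 0.00693). Every sleep-deprived array was below every sleep array. Derl2 differed by −0.08 ± 0.12, so that the 3 derlin genes ran from a fall through no call to a rise. Edem1, Edem2, Os9 and Selenok, which take part in recognizing or extracting degradation substrates, differed by 0.02 ± 0.17, −0.06 ± 0.32, 0.03 ± 0.09 and −0.01 ± 0.10. The translocon genes Sec61a1, Sec61b and Ssr1 differed by 0.17 ± 0.08, 0.04 ± 0.09 and −0.08 ± 0.06.

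In all, 4 of the 35 genes had every sleep-deprived bound array above every sleep array, against 3.98% of all tested genes. These were Sdf2l1, Herpud1, Sel1l and Derl3, of which Derl3 is no support for the count because of the filter. For 1 gene, Derl1, all lay below, against 3.35%. Other probe sets of the called genes mostly moved the same way: 16 of 17 had the same direction and 9 were called, and the exception was a Derl1 probe set at 0.14. With all probe sets of a gene averaged, Pdia6 (0.27, adjusted p = 0.397) and Sel1l (0.20, adjusted p = 0.144) were not called. Cell type markers moved in both directions in the same comparison. Of 11 oligodendrocyte markers, 3 rose and 2 fell, of 11 neuron markers 1 rose and 1 fell, and of 12 astrocyte markers 1 rose. Neuron markers averaged 10.51 to 11.01 in sleep and 10.49 to 10.95 in sleep deprivation, and their part in the result was not tested.

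**Figure D2:**
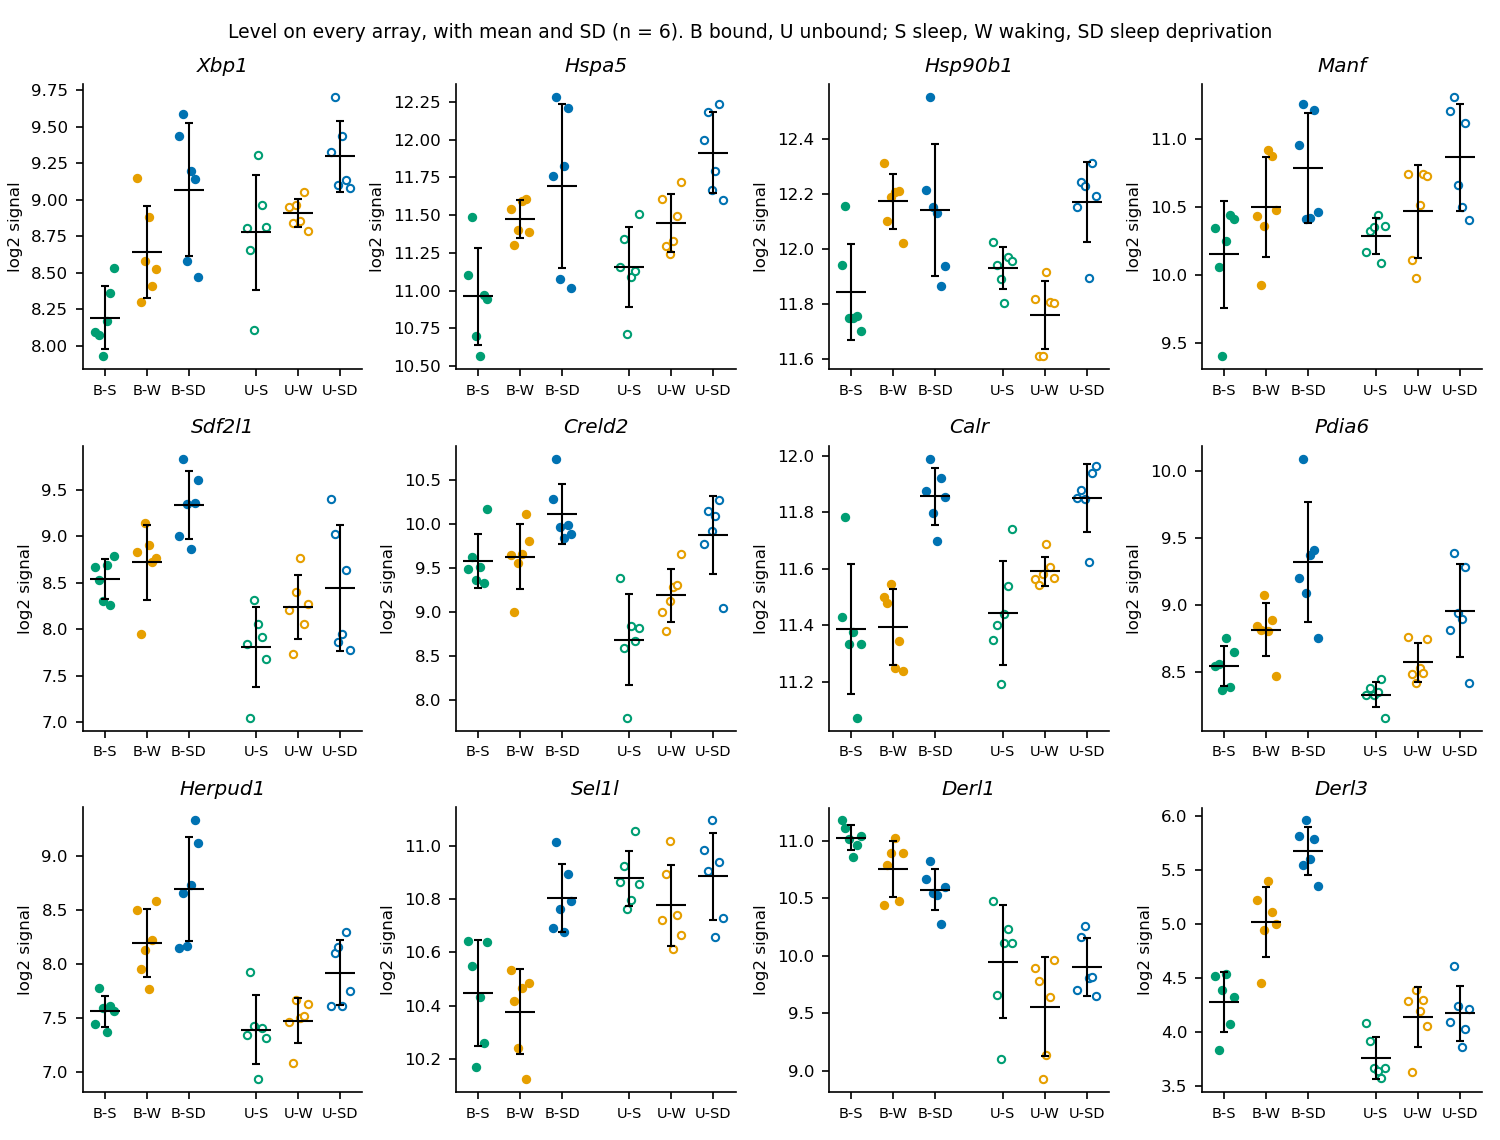
Log2 signal of 12 genes on every array (vertical axis, scaled per gene), with filled points for bound and open points for unbound arrays of the sleep (S), waking (W) and sleep-deprived (SD) groups, and lines for the mean and SD of 6. Bound Derl3 (medians of 4.36, 5.06 and 5.70) and Herpud1 (7.58, 8.18 and 8.70) were lowest in sleep and highest in sleep deprivation, and bound Calr and Sel1l were higher in sleep deprivation than in either other state.

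In the unbound fraction, 4 of the 9 genes of the Hsp70 and Hsp90 system and 2 of the 8 lectin and disulfide genes rose with sleep deprivation. Against sleep, 10 of the 35 genes rose and 0 fell in the unbound arrays. Of all tested genes, 4.65% were called higher and 3.17% lower. At an unadjusted limma p below 0.05, 18 of the 35 passed, as did 3142 of all 13924 tested genes. The median change of the 35 was 0.24 log2, against 0.02 for all tested genes, and 32 changes were positive. Xbp1, Hspa5, Hsp90b1, Manf, Calr and Pdia6 were called in both fractions. Sdf2l1, Pdia3, Herpud1, Sel1l, Derl1 and Derl3 were called in the bound arrays and not the unbound, and Creld2, Sec61a1, Syvn1 and Derl2 the reverse. The difference between the fractions was itself called for Derl3 alone among these 16 genes, as given further on.

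Xbp1 had unbound levels of 8.11, 8.81 and 9.31 in sleep and 9.08, 9.23 and 9.70 in sleep deprivation, a rise of 0.52 ± 0.16 (adjusted p = 0.0457). The call was narrow and was lost without any 1 of 14 animals, with adjusted p up to 0.107. Of the sensors, Ern1 had 5.76, 6.26 and 6.96 in sleep and 5.12, 6.69 and 7.31 in sleep deprivation, a difference of 0.07 ± 0.32 (adjusted p = 0.927) whose sign turned when 1 of several animals was left out. Eif2ak3 had 7.42, 7.51 and 7.77 in sleep and 7.26, 7.72 and 7.80 in sleep deprivation, and differed by 0.08 ± 0.13. Atf6 had 9.81, 9.91 and 10.15 in sleep and 9.78, 10.04 and 10.55 in sleep deprivation, and differed by 0.18 ± 0.14, so that no sensor was called in either fraction.

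Hspa5 separated fully between the groups on the probe set used, while its 2 other probe sets changed by 0.06 and 0.68, with 1 called. The probe set used had 10.71, 11.14 and 11.51 in sleep and 11.60, 11.90 and 12.24 in sleep deprivation. This was a rise of 0.76 ± 0.13 (adjusted p = 0.00112), with no overlap. Creld2 had 7.79, 8.74 and 9.39 in sleep and 9.05, 10.00 and 10.27 in sleep deprivation, and its rise of 1.19 ± 0.23 (adjusted p = 0.00303) was the largest of the 35 genes in this fraction. Only the array of sleep-deprived animal 11 fell within the sleep range of Creld2. Manf rose by 0.58 ± 0.16 (adjusted p = 0.0348), from 10.08, 10.33 and 10.44 to 10.40, 10.89 and 11.31, and Hsp90b1 rose by 0.24 ± 0.07 (adjusted p = 0.0304), from 11.80, 11.95 and 12.02 to 11.90, 12.21 and 12.31. Both overlapped with sleep, and both calls were lost when some single animals were left out (adjusted p up to 0.0843 and 0.0727). Sdf2l1 was spread widely and not called, at 0.64 ± 0.27 (adjusted p = 0.165).

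Calr rose in the unbound fraction from 11.19, 11.42 and 11.74 to 11.62, 11.87 and 11.96, by 0.41 ± 0.07 (adjusted p = 0.00182). All 6 sleep-deprived arrays exceeded the sleep mean, with animal 9 far below the other 5. Pdia6 rose from 8.15, 8.34 and 8.44 to 8.42, 8.92 and 9.39, by 0.63 ± 0.14 (adjusted p = 0.00842), with animal 11 again the lone array within the range of sleep. With all probe sets averaged, unbound Pdia6 changed by 0.29 and was not called (adjusted p = 0.362). Pdia4 differed by 0.61 ± 0.21 (adjusted p = 0.0835) and Pdia3 by 0.17 ± 0.07 (adjusted p = 0.139).

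Sec61a1, the pore subunit of the translocon, rose from 10.67, 10.80 and 10.97 to 10.82, 11.24 and 11.48, by 0.42 ± 0.10 (adjusted p = 0.0141). Its groups overlapped through animal 10, and with all 6 of its probe sets averaged the change was 0.16 (adjusted p = 0.403). Syvn1 rose from 7.44, 7.89 and 8.37 to 8.22, 8.41 and 8.78, by 0.52 ± 0.15 (adjusted p = 0.0391). Derl2 rose from 9.47, 9.50 and 9.56 to 9.57, 9.88 and 10.23, by 0.41 ± 0.11 (adjusted p = 0.0225). Syvn1 overlapped with sleep through animals 6 and 9, and the Derl2 groups did not overlap. Both calls were lost without some single animals (adjusted p up to 0.0884 and 0.0578). The second probe sets of Syvn1 and Derl2 changed by 0.15 and 0.04. With all probe sets averaged, the changes were 0.33 (adjusted p = 0.134) and 0.22 (adjusted p = 0.274). Herpud1 differed by 0.53 ± 0.17 (adjusted p = 0.0607), Derl3 by 0.42 ± 0.14 (adjusted p = 0.0669), Sel1l by 0.01 ± 0.08 and Derl1 by −0.05 ± 0.21.

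Hspa5 and Derl2 were the 2 of 35 genes with every unbound sleep-deprived array above every sleep array, against 3.03% of all tested genes. The count of 10 fell to 6 after quantile normalization within the fraction and to 5 or 6 without sleep-deprived animal 10 or 7. Quantile normalization kept Hspa5, Creld2, Calr, Pdia6, Sec61a1 and Derl2. Without the animals set apart by Xist the count was 8, and Xbp1 (adjusted p = 0.0537), Hsp90b1 (0.0515) and Syvn1 (0.0526) were not called. The 12 astrocyte markers averaged 10.02 to 10.15 in sleep and 10.16 to 10.41 in sleep deprivation, with 2 called higher and 0 lower, and neuron markers averaged 11.88 to 12.15 and 12.09 to 12.23, with 1 of 11 called higher. Of the 11 oligodendrocyte markers, which averaged 9.45 to 9.81 and 9.55 to 9.86, 3 were called higher and 1 lower, and of 3 endothelium markers 1 was lower. Their part in the unbound rises was not tested.

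The 35 genes were also counted array by array. On each bound sleep-deprived array, 10 to 20 of the 35 genes exceeded every other sleep array of the fraction, against 4 to 13 on waking and 2 to 9 on sleep arrays, and the share over all tested genes was 20.5% to 24.3%, 16.8% to 21.7% and 14.3% to 19%. On the unbound arrays the counts were 13 to 22 in sleep deprivation, 2 to 14 in waking and 4 to 9 in sleep, and the shares over all tested genes 19.7% to 22.2%, 10.6% to 17.7% and 12.8% to 21.4%. Sleep-deprived animal 7 had the highest count in both fractions (20 and 22) and animal 9 the lowest (10 and 13).

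**Figure D3:**
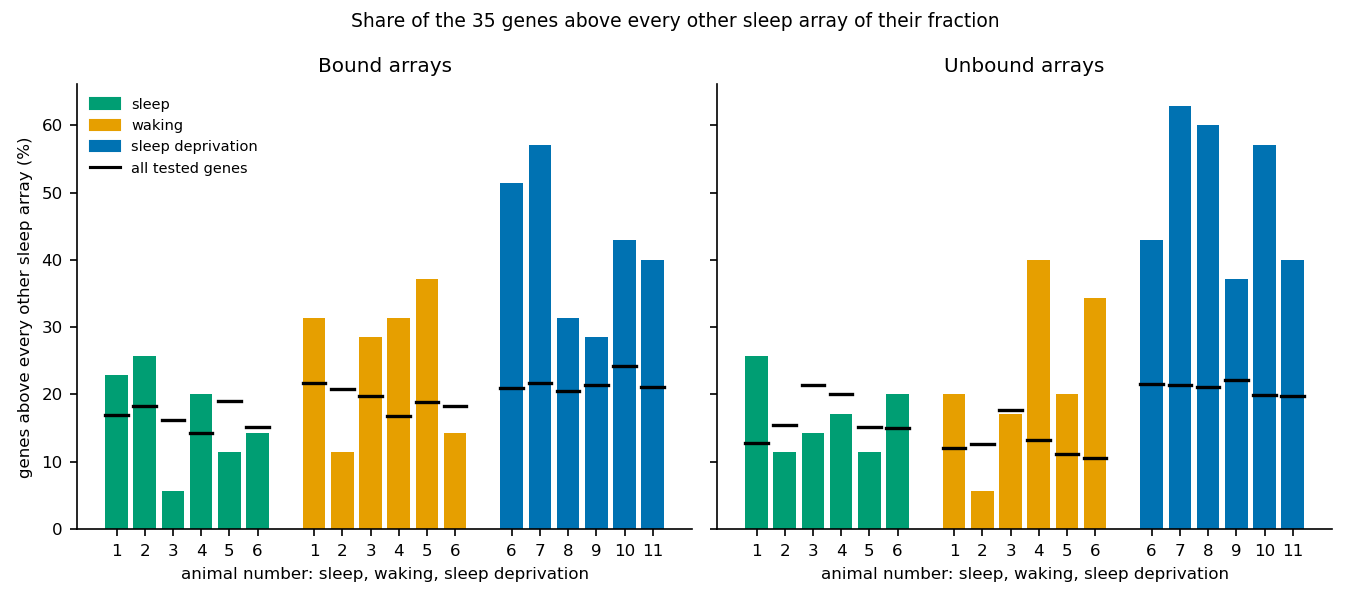
Share of the 35 genes on each array that lay above every other sleep array of the same fraction (bars, in percent), with the share over all tested genes as a black line; numbers on the horizontal axis name the animals. Every sleep-deprived bar stood above its line, from 28.6% to 57.1% in the bound and from 37.1% to 62.9% in the unbound arrays. Waking and sleep bars stood above their line in some animals and below it in others. Unbound waking animal 4, for example, had 40% against 13.2%, and unbound waking animal 2 had 5.71% against 12.7%.

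Fewer of these genes were called between spontaneous waking and sleep, 2 states that also differ in time of day. Against sleep, 3 of the 35 (8.57%) rose and 1 (2.86%) fell in the bound arrays. Of all tested genes, 4.68% were called higher and 4.79% lower. These counts are small, so the genes named next are described singly and not as a result about the 35. The median change was 0.03 log2, against −0.01 over all tested genes. Derl3 had 4.45, 5.06 and 5.40 in waking, a rise of 0.74 ± 0.16 over the sleep levels given above (adjusted p = 0.00794). All waking arrays but that of animal 2 were above the sleep arrays. Because Derl3 passed the filter only through its bound waking and sleep-deprived arrays, it is no support for the count of 3. Herpud1 had 7.77, 8.18 and 8.59 in waking, a rise of 0.63 ± 0.19 (adjusted p = 0.0451), and Hsp90b1 had 12.02, 12.20 and 12.31, a rise of 0.33 ± 0.10 (adjusted p = 0.0385). Each of these overlapped with sleep by a single sleep array, that of animal 2. Ssr1, a subunit of the translocon-associated TRAP complex, fell from 11.21, 11.34 and 11.46 to 10.97, 11.11 and 11.26, by 0.22 ± 0.06 on the log2 scale (adjusted p = 0.0378), with an overlap of the groups.

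Of these 4 calls, Derl3 alone held without waking animals 3 and 5 and sleep-deprived animal 11. Without them, adjusted p was 0.111 for Herpud1, 0.12 for Hsp90b1 and 0.152 for Ssr1, and each of these calls was also lost when some single animals were left out. The count of risers fell from 3 to 1 without sleep animal 3, 4, 5 or 6 or waking animal 1, 3 or 5. Hspa5 had 11.30, 11.47 and 11.61 in waking, a difference of 0.51 ± 0.19 that was not called (adjusted p = 0.107), and Xbp1 had 8.30, 8.56 and 9.15, a difference of 0.45 ± 0.19 (adjusted p = 0.152). For both, all 6 waking arrays were above the sleep mean. The sensors Ern1, Eif2ak3 and Atf6 differed by 0.68 ± 0.41, −0.11 ± 0.12 and −0.12 ± 0.20. The waking levels were 5.83, 6.63 and 7.25 for Ern1, 7.24, 7.46 and 7.69 for Eif2ak3 and 8.57, 9.39 and 9.98 for Atf6, all overlapping with sleep. Calr, called with sleep deprivation, differed by 0.00 ± 0.09 in waking, and Sel1l by −0.07 ± 0.10.

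On the unbound arrays, 0 of the 35 genes were called higher and 0 lower between waking and sleep by limma. Of all tested genes, 1.49% were called higher and 5.72% lower. At an unadjusted limma p below 0.05, 5 of the 35 passed, as did 3326 of all 13924 tested genes. The largest positive differences were those of Creld2 at 0.51 ± 0.23 (adjusted p = 0.179) and Sdf2l1 at 0.43 ± 0.27 (adjusted p = 0.349). Xbp1 had 8.79, 8.90 and 9.05 in waking, inside the wider range of sleep. The sensors Ern1, at 6.12, 6.75 and 7.26, Eif2ak3, at 7.22, 7.51 and 7.75, and Atf6, at 9.51, 9.86 and 10.32, overlapped with sleep and differed by 0.33 ± 0.32, −0.05 ± 0.13 and −0.10 ± 0.14. Hspa5 differed by 0.29 ± 0.13 (adjusted p = 0.172) and Derl1 by −0.39 ± 0.21 (adjusted p = 0.276). The unbound waking arrays had a lower overall signal, with a median change of −0.09 over all tested genes. Of all called genes 20.6% were higher as deposited, and 50.1% after quantile normalization within the fraction. The count of the 35 stayed at 0 under that normalization. The waking and the sleep-deprivation comparisons share their 6 sleep arrays, so that they are not independent of each other.

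Sleep deprivation was also set against spontaneous waking. This contrast is also one of light against dark phase, which cannot be told apart from the kind of waking. In the bound arrays 3 of the 35 genes were higher in sleep deprivation and 0 lower. Of all tested genes, 2.69% were called higher and 2.32% lower. At an unadjusted limma p below 0.05, 13 of the 35 passed, as did 2776 of all 13924 tested genes. Calr had 11.24, 11.41 and 11.55 in waking and exceeded this in every sleep-deprived array, with a rise of 0.46 ± 0.09 (adjusted p = 0.00648). Sel1l had 10.12, 10.44 and 10.53 in waking and likewise did not overlap, with a rise of 0.43 ± 0.10 (adjusted p = 0.0154). These were 2 of 35 genes with no overlap, against 2% of all tested genes. Derl3 rose by 0.66 ± 0.16 (adjusted p = 0.0251), with an overlap through waking animal 4 and sleep-deprived animal 11. Its call was lost without waking animal 2 or sleep-deprived animal 6 or 8 (adjusted p up to 0.0578). Because it passed the filter only through its bound waking and sleep-deprived arrays, Derl3 is no support for the count of 3. Without the animals set apart by Xist, Calr alone was still called, and adjusted p was 0.137 for Sel1l and 0.0718 for Derl3.

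On the unbound arrays 4 of the 35 genes were higher in sleep deprivation than in waking and 0 lower. Of all tested genes, 8.45% were called higher and 1.49% lower. At an unadjusted limma p below 0.05, 17 of the 35 passed, as did 3655 of all 13924 tested genes. Hsp90b1 had 11.61, 11.80 and 11.92 in waking and was higher by 0.41 ± 0.07 (adjusted p = 0.0011). Hspa5 had 11.24, 11.41 and 11.72 in waking and was higher by 0.47 ± 0.13 (adjusted p = 0.0276), and Calr had 11.54, 11.57 and 11.69 and was higher by 0.26 ± 0.07 (adjusted p = 0.0305). Sec61b, the small subunit of the Sec61 channel, had 9.94, 10.17 and 10.44 in waking and 10.41, 10.58 and 10.77 in sleep deprivation, a difference of 0.40 ± 0.11 (adjusted p = 0.0269). Each of the 4 overlapped with waking by 1 or more arrays, and the calls of Hspa5, Calr and Sec61b were lost without some single animals (adjusted p up to 0.0656, 0.0643 and 0.0635). Xbp1 and Syvn1 did not overlap between the groups and were not called (adjusted p = 0.12 and 0.0537), as 2 of 35 against 4.63% of all tested genes without overlap.

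Cell type markers moved with these genes. As deposited, where the median of all tested genes was 0.11, all 11 oligodendrocyte markers had a positive change and 4 were called higher, with averages of 9.13 to 9.52 in waking and 9.55 to 9.86 in sleep deprivation. Of the neuron and astrocyte markers, 3 of 11 and 2 of 12 were called higher, and none of these lists had a lower call. Their part in the result was not tested.

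The unbound contrast between sleep deprivation and waking depended on scaling. The median of all tested genes was 0.11 as deposited and −0.0028 after quantile normalization within the fraction, and the share of higher genes among all called fell from 85% to 48.8%. After that normalization the count of the 35 went from 4 to 1, Hsp90b1, and adjusted p was 0.129 for Hspa5, 0.292 for Calr and 0.199 for Sec61b. Without the animals set apart by Xist, 2 genes were called, Hsp90b1 and Sec61b, and without waking animal 1 or 2 or sleep-deprived animal 7 the count was 1 or 2.

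Whether a change differed between the fractions was tested on the difference of the 2 arrays of each animal. For sleep deprivation against sleep, 1 of the 35 genes was called with a larger change in the bound arrays and 0 with a smaller one. Of all tested genes, 3.03% and 3.21% were called. The called gene was Derl3, whose bound minus unbound difference was 0.52 ± 0.34 in sleep (SD, n = 6) and 1.51 ± 0.37 in sleep deprivation, a change of 0.98 ± 0.19 (SE; adjusted p = 0.00369) with no overlap of the animals. Its unbound signal was low in every state, so that this rests on a probe set near the bottom of the scale in 1 fraction. Derl3 passed the filter on signal level only through its bound waking and sleep-deprived arrays, so the call is no support for a fraction difference. For the other genes called in 1 fraction alone, the difference was not called: Herpud1 had 0.60 ± 0.22 (adjusted p = 0.11), Sel1l 0.35 ± 0.13 (adjusted p = 0.127), Derl1 −0.41 ± 0.25 (adjusted p = 0.368), Creld2 −0.65 ± 0.24 (adjusted p = 0.109) and Derl2 −0.49 ± 0.18 (adjusted p = 0.111). Sdf2l1, Pdia3, Sec61a1 and Syvn1 lay between −0.37 and 0.21.

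For waking against sleep, 1 of the 35 genes, Hsp90b1, had a change called more positive in the bound arrays, and 0 were called more negative. Of all tested genes, 3.94% and 1.4% were called. The bound minus unbound difference of Hsp90b1 was −0.09 ± 0.17 in sleep and 0.41 ± 0.14 in waking (SD, n = 6). This was a change of 0.50 ± 0.11 (SE, adjusted p = 0.0135) with no overlap. For sleep deprivation against waking, Hsp90b1 was again the 1 gene called, with a change of −0.44 ± 0.11 (adjusted p = 0.0321), where 1.09% of all tested genes were called more positive in the bound arrays and 3.17% more negative. The second Hsp90b1 probe set did not show either difference, at 0.03 and 0.00, and without the animals set apart by Xist adjusted p was 0.0659 and 0.184. After quantile normalization within each fraction, the adjusted p of the second contrast was 0.0796, and it reached 0.0674 with 1 of 7 animals left out (waking 1, 2, 3 or 5 and sleep-deprived 8, 10 or 11). Under that scaling the share of more positive genes among all called went from 73.8% to 55.7% for waking against sleep and from 25.6% to 51.1% for sleep deprivation against waking.

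The level of these genes also differed between the fractions over all states. Measured within animals, 19 of the 35 were higher in the bound than in the unbound arrays and 7 were lower, where 25.5% of all tested genes were called higher and 58.1% lower. The median of the 35 was 0.21 log2, against −0.35 for all tested genes, whose median moved to 0.08 when all 36 arrays were quantile normalized together. The share of higher genes among all called moved with it, from 30.5% to 53.6%. Under that scaling 24 of the 35 were higher and 6 lower. Among the 13931 genes tested in that setting, 6157 were called higher and 5329 lower. Of the 35, 29 kept their call. The 6 that did not were Xbp1, which was no longer called lower, and Eif2ak3, Hsp90b1, Sec61b, Syvn1 and Os9, which became higher.

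**Figure D4:**
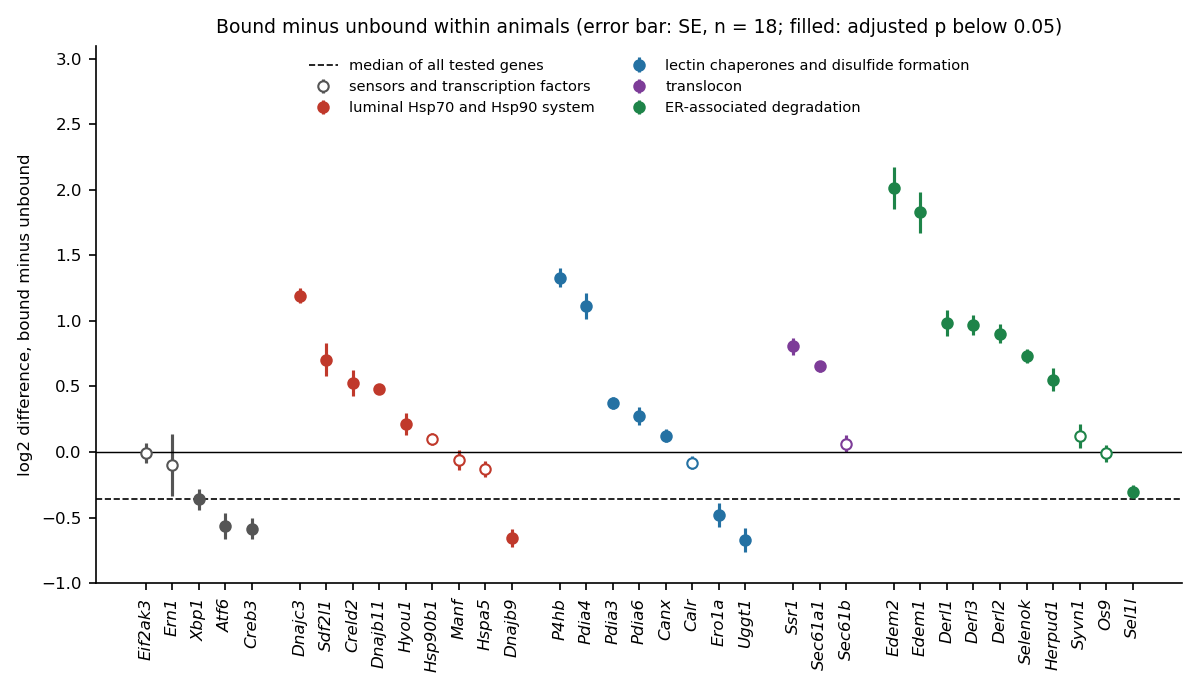
Difference of each gene between the bound and unbound array of an animal (vertical axis, log2; mean over 18 animals with SE, filled for an adjusted p below 0.05), grouped by role, with the median of all tested genes dashed at −0.35. The degradation genes Edem2 and Edem1 were highest, and no gene among the sensors and factors was above 0.

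Of the genes of ER-associated degradation, 7 of 10 were higher in the bound fraction and 1 was lower, with a median of 0.82. Edem2 and Edem1, lectins that hand mannose-trimmed glycoproteins to degradation, led all 35 genes at 2.01 ± 0.16 and 1.83 ± 0.16 (SE, n = 18), and both were higher in the bound array of 18 of 18 animals. Bound Edem1 ran from 9.00 to 10.22 and unbound Edem1 from 6.00 to 8.47 over all states, with no overlap. Derl1, Derl3 and Derl2 followed at 0.98 ± 0.10, 0.97 ± 0.08 and 0.90 ± 0.07, then Selenok at 0.74 ± 0.05 and Herpud1 at 0.55 ± 0.09. Derl3 passed the filter only through its bound arrays, so its count among the higher genes is no support for a bound excess. Sel1l was lower, at −0.30 ± 0.05, and Syvn1 and Os9 were not called. Second probe sets of Derl2 (−0.63) and Herpud1 (−0.02) did not show the bound excess, and with all probe sets averaged Sel1l was not lower, at 0.02. Derl2 was not called with its probe sets averaged, at 0.14 (adjusted p = 0.151).

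In the other roles the genes divided. P4hb at 1.33 ± 0.07, Dnajc3 at 1.19 ± 0.06 and Pdia4 at 1.11 ± 0.10 were higher in the bound array of 18 of 18 animals, as were Ssr1 at 0.81 ± 0.06, Sec61a1 at 0.65 ± 0.04 and Dnajb11 at 0.48 ± 0.04. Sdf2l1 at 0.70 ± 0.12, Creld2 at 0.53 ± 0.10, Pdia3 at 0.37 ± 0.05, Pdia6 at 0.27 ± 0.07, Hyou1 at 0.21 ± 0.09 and Canx at 0.13 ± 0.05 were higher by less. The second Pdia3 probe set was lower at −1.38, and with all probe sets averaged Pdia3 (−0.50) and Canx (−0.10) turned negative. With the same averaging, Pdia6 (0.17, adjusted p = 0.148) and Hyou1 (0.13, adjusted p = 0.25) were not called. The call of Hyou1 was also lost without any 1 of 4 animals (adjusted p up to 0.0615). The abundant chaperones Hspa5, Hsp90b1, Manf and Calr were not called, at −0.13 ± 0.06, 0.10 ± 0.05, −0.06 ± 0.07 and −0.08 ± 0.05.

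Genes with more signal in the unbound fraction were Uggt1 at −0.67 ± 0.09, Dnajb9 at −0.65 ± 0.07, Creb3 at −0.58 ± 0.08, Atf6 at −0.57 ± 0.10, Ero1a at −0.48 ± 0.09 and Xbp1 at −0.36 ± 0.08, besides Sel1l. Apart from Xbp1, all of these were called lower under the joint quantile normalization as well. Of the 5 sensors and factors, 3 were thus lower in the bound fraction and Ern1 and Eif2ak3 were not called as deposited. All 3 Atf6 probe sets were lower, from −0.72 to −0.51.

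Beyond the 35 genes, 83 further ER genes were tested as related lists. In the bound arrays 7 rose and 4 fell with sleep deprivation, where 7.53% and 6.87% of all tested genes did, and 2 rose and 3 fell with waking, against 4.68% and 4.79%. In the unbound arrays 5 rose and 2 fell with sleep deprivation, against 4.65% and 3.17%, and 1 rose and 4 fell with waking, against 1.49% and 5.72%. These counts were near the background, so the genes named next are a description of single genes and not of the lists. Their median change with sleep deprivation was −2.33e-05 log2 in the bound and 0.08 in the unbound arrays. Txndc5, a disulfide isomerase of the ER, rose by 0.94 ± 0.22 in the bound arrays with sleep deprivation. Erlin2, an ER membrane protein that takes part in degradation, rose by 0.98 ± 0.19, and Fkbp14, a prolyl isomerase, by 1.77 ± 0.38. Nploc4 and Ube2j2, a cofactor of the extracting ATPase p97 and a ubiquitin-conjugating enzyme, rose by 0.33 ± 0.08 and 0.37 ± 0.11. Srpr, the receptor of the signal recognition particle, rose by 0.47 ± 0.13.

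The related genes that fell in the bound arrays with sleep deprivation were Erlec1, a lectin of degradation, by 0.74 ± 0.17, Sil1, the nucleotide exchange factor of BiP, by 0.48 ± 0.16, Rpn2, a subunit of the oligosaccharyltransferase, by 0.46 ± 0.15, and Tmx3, a membrane disulfide isomerase, by 0.38 ± 0.09. With waking, the factor Creb3l1 rose by 0.63 ± 0.14 and Nploc4 by 0.28 ± 0.08, and Sil1 fell by 0.63 ± 0.16, Creb3l2 by 0.53 ± 0.13 and Ssr3, another TRAP subunit, by 0.29 ± 0.07. Between sleep deprivation and waking, Erlin2 (0.74 ± 0.19) and Creb3l2 (0.51 ± 0.13) were higher in sleep deprivation. Among 7 genes downstream of PERK, limma called 0 in the bound arrays with sleep deprivation, with 0 at an unadjusted p below 0.05, and 1 rose in the unbound arrays. This was Ddit3, the stress factor CHOP, at 0.42 ± 0.09 (adjusted p = 0.00764), which is named here after its values were seen. Atf4, the factor that PERK signalling induces at the level of translation, differed by 0.07 ± 0.10 and 0.18 ± 0.11.

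The promoter sequences printed above can be set beside these values. Of the 10 members with an ERSE or ERSE-II, 6 rose with sleep deprivation in the bound arrays (Hspa5, Hsp90b1, Calr, Pdia6, Herpud1 and Derl3) and 6 in the unbound arrays (Hspa5, Hsp90b1, Creld2, Calr, Pdia6 and Syvn1), 8 in at least 1 of them. Among all tested genes, 7.53% were called higher in the bound and 4.65% in the unbound arrays. How many of all tested genes rose in at least 1 fraction was not counted. The median change of the 10 was 0.50 in the bound and 0.47 in the unbound arrays. Of the 20 members with a promoter window and neither motif, 4 rose in the bound arrays (Xbp1, Sdf2l1, Pdia3 and Sel1l) and 2 in the unbound (Xbp1 and Derl2), 5 in at least 1, with medians of 0.07 and 0.15. Dnajc3 and Canx held an ERSE and were not called, at 0.08 and 0.03 in the bound arrays. The members with and without a motif were not compared by a test, and a part of the motif in the rises was not tested. Derl3 is no support for these counts, as it passed the filter only through its bound waking and sleep-deprived arrays. Of 64 related genes with a window, 1 held an ERSE. No match says only that these letters are not in this window, and the 5 members without a window, among them Manf, Hyou1 and Sec61a1, were not searched.

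Over all 6 state comparisons within a fraction and the 3 fraction differences, 18 of the 35 genes were called at least once. The share of all tested genes called at least once was not counted, so the 18 are no result about the 35. Derl3 is among the 18 and is no support for the count, because it passed the filter only through its bound waking and sleep-deprived arrays. The 17 others were Ern1, Eif2ak3, Atf6, Creb3, Hyou1, Dnajb9, Dnajb11, Dnajc3, Canx, Uggt1, Pdia4, P4hb, Ero1a, Edem1, Edem2, Os9 and Selenok. Among them are the genes with the largest excess in the bound fraction, Edem2, Edem1, P4hb, Dnajc3 and Pdia4. Their levels thus differed between fractions without a called change with state. Edem1 and Edem2 had an SE of 0.17 and 0.32 for the bound sleep-deprivation change, while P4hb and Canx had an SE of 0.09 and 0.08.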

How the data were processed

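RNA of 36 samples, the bound and unbound fraction of 18 animals, was measured on Affymetrix mouse expression arrays. The deposited values are log2 signals per probe set that the authors made with RMA, per the submitters' processing notes; its version, and whether the fractions were normalized together, are not given in the sources used here. Log2 signals carry no count, so depth is not defined. RMA compresses folds of dim probe sets.

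Of 45101 rows, 64 control rows were left out, and 34945 probe sets with 1 gene symbol gave 18193 genes, each through its probe set with the highest mean. Genes whose mean reached the 40th percentile in at least 1 fraction were tested (13924). In limma 3.58.1 (R 4.3.3, R package data.table, version 1.17.8), the 18 arrays of a fraction were fitted with group means and an intensity trend, and fractions were compared on the bound minus unbound difference of each animal. All adjusted p-values in the text come from these limma fits, with Benjamini-Hochberg adjustment over all tested genes. The pairing of fractions comes from the series' design text; deviations from the group means correlated at −0.0032 to 0.0848 within the 18 animals. The script was tested on simulated data. Promoters were searched with Python 3.11.15, and figures drawn with matplotlib 3.10.9.

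The members, the gene lists and the tests were chosen with earlier results of these data known. Values by array are given for members called in any state comparison or fraction difference and for Ern1, Eif2ak3, Atf6 and Xbp1, and of 89 related genes (83 tested) up to 6 risers and 6 fallers with the smallest p are named per bound state comparison. Alternatives were quantile normalization, other filters, the mean of all probe sets, no trend, a block, and leaving out animals.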

Additional observations from a re-analysis of the deposited data

Results flagged for a closer look

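For the 21 members whose levels by array were described, 126 groups of 6 arrays were examined for a single array that stood apart from the other 5 by Dixon's criterion, which chance meets in about 1 in 20 groups. There were 7 such arrays. Atf6 was low on the bound array of sleep animal 5, at 8.86 against 9.54 to 9.68. Sdf2l1 was low on the bound array of waking animal 2, at 7.95 against 8.73 to 9.15. Manf was low on the bound array of sleep animal 3, at 9.40 against 10.06 to 10.44. Creld2 was high on the bound array of sleep animal 6, at 10.17 against 9.32 to 9.62, and Syvn1 on that of sleep-deprived animal 7, at 8.71 against 8.24 to 8.42. In the unbound fraction, Calr was low in sleep-deprived animal 9, at 11.62 against 11.85 to 11.96, and Herpud1 in waking animal 2, at 7.09 against 7.46 to 7.67.

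In 3 cases the test of the difference between fractions was itself called. The change of Hsp90b1 from sleep to waking was more positive in the bound fraction by 0.50 log2, and its change from waking to sleep deprivation differed by −0.44. The change of Derl3 from sleep to sleep deprivation was more positive in the bound fraction by 0.98.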

How the results depend on the processing

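Counts are of the 35 genes. Bound waking against sleep gave 3 higher, and 1 with the 60th percentile filter or without the animals set apart by Xist; its 1 lower became 0 in both cases, with the mean of all probe sets and without the intensity trend. Bound sleep deprivation against waking went from 3 to 1 without the Xist animals. Unbound sleep deprivation against sleep went from 10 to 6 under either quantile normalization and with the mean of probe sets. Unbound sleep deprivation against waking went from 4 to 1 under either quantile normalization, 2 without the Xist animals and 7 with no filter. Fraction differences went from 1 to 0 for waking against sleep (mean of probe sets, Xist animals left out), from 1 to 0 (60th percentile) or 2 (mean of probe sets) for sleep deprivation against sleep, and from 1 lower to 0 for sleep deprivation against waking (both quantile normalizations, mean of probe sets, no trend, Xist animals left out), with 1 higher in place of 0 without a filter. Leaving out single animals gave 1 to 3 higher and 0 to 1 lower for bound waking against sleep, 9 to 12 and 1 for bound sleep deprivation against sleep, 2 to 4 for bound sleep deprivation against waking, 0 to 1, 5 to 11 and 1 to 6 higher for the unbound contrasts in that order, 18 to 20 higher and 7 to 9 lower for bound minus unbound, and, for the fraction differences of waking against sleep, sleep deprivation against sleep and sleep deprivation against waking, 1, 1 to 2 and 0 to 1 more positive and 0 to 1 more negative in each. Sleep and waking animals share replicate numbers 1 to 6, but same-numbered arrays correlated at −0.000946 to 0.0868 (bound) and −0.00503 to 0.1 (unbound), so the numbers were not taken as pairs; a replicate block gave 4 higher and 0 lower bound members and 0 unbound, with 1303 and 464 genes called in all against 1318 and 1004. Without the animal block, bound minus unbound had 18 higher and 7 lower. Signs that turned, all but 3 of them of uncalled values: Atf6 in waking (bound −0.24 to 0.040 with single animals left out, positive without waking animal 1, unbound 0.060 without the Xist animals); Eif2ak3 in waking (bound 0.27 with the mean of probe sets, unbound 0.043 and 0.046 under the quantile normalizations and −0.10 to 0.0061 with single animals left out, positive without waking animal 5) and in unbound sleep deprivation (−0.16, mean of probe sets); Xbp1 in unbound waking (−0.00062 to 0.24, negative without sleep animal 3); Ern1 in unbound sleep deprivation (−0.012 without the Xist animals, −0.10 to 0.33 with single animals left out, negative without sleep animal 4 or sleep-deprived animals 9, 10 or 11). The 3 called values that turned were bound minus unbound levels under the mean of probe sets: Canx −0.10, Pdia3 −0.50 and Sel1l 0.023. The causes were not tested. Signal over background limits Derl3, whose unbound mean and bound sleep mean lay below the filter levels.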
